A study of Rattus norvegicus with 2 samples.

Results

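The enzymes that build and degrade heme were examined in rat esophageal tissue after the histone deacetylase inhibitor OSU-HDAC42. The set was given as 9 named genes, 4 of heme breakdown (Hmox1, Hmox2, Blvra and Blvrb) and 5 of heme synthesis (Alas1, Alad, Urod, Cpox and Fech). A gene was measured by probe sets that the platform annotation assigns to it alone, and each of the 9 had 1 such probe set, among 14217 genes measured in all. They were selected on pathway membership with their intensity differences between these same arrays, that of Blvrb above all, already known. Their values are therefore a description and carry no test.

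Male Sprague-Dawley rats, an outbred laboratory strain, were 5 to 6 weeks old when purchased. One group received 7 gavage doses of OSU-HDAC42 at 50 mg/kg, 350 mg/kg in total, and the other received vehicle. Esophageal tissue of both groups was collected on day 15, at 24 hours from the last gavage, and profiled on Affymetrix rat 230 2.0 arrays. Each group had 1 array, and the labels do not say whether its RNA came from 1 rat or from several. No spread between rats could therefore be measured, and the groups cannot overlap or separate in the usual sense. Which layers of the wall the tissue held is not stated in the labels. Defining keratins of its squamous lining were very bright on both arrays, with Krt13 at an intensity of 14438 after OSU-HDAC42 and 14947 after vehicle.

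Heme is an iron-containing ring made by nearly every cell. ALA synthase (Alas1 outside red cells) starts synthesis in the mitochondrion, Alad and Urod act in the cytosol, and Cpox, Ppox and Fech finish the ring and insert iron back in the mitochondrion. Heme oxygenases (the inducible Hmox1 and the constitutive Hmox2) open the ring to biliverdin, iron and carbon monoxide, and the biliverdin reductases Blvra and Blvrb reduce biliverdin to bilirubin. Blvra acts on the adult biliverdin isomer, whereas Blvrb acts on the isomer of fetal bile and is also a flavin reductase. In epithelia Hmox1 is best known as a target of the stress-responsive factor NRF2.

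Blvrb was the 1 member of the 9 with a large difference. It was 3.55-fold higher after OSU-HDAC42, while the other 8 members differed by less than 2-fold, 3 of them higher and 5 lower. Alas1 (1.60-fold lower) and Hmox1 (1.48-fold lower) came next in size, so the first enzyme of synthesis and the inducible first enzyme of breakdown were both lower. The share of all 9560 genes above the expression floor that were 2-fold or more higher was 1.88%, and the share lower by that much was 3.17%. The floor was an intensity of 49.1, the middle value of all non-control probe sets when both arrays are averaged on the log2 scale, and a gene passed it when its higher array did. With the threshold at 1.5-fold, Blvrb was counted as higher and Alas1 as lower, beside 7.58% and 10.9% of all genes above the floor. Nothing is read from these counts, since the members were picked with the contrast known. In bulk tissue, fewer cells of a type and less RNA per cell cannot be told apart.

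**Figure D1:**
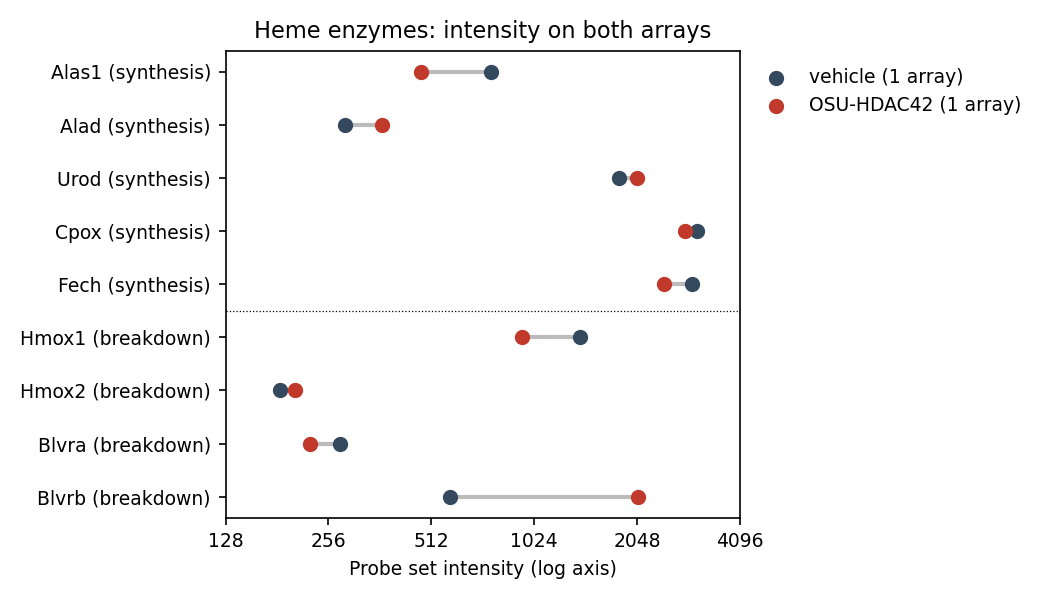
Probe set intensity (log axis) of the 9 heme enzymes on the OSU-HDAC42 array (red) and the vehicle array (dark blue), 1 array each, with a line joining both values of a gene. Blvrb spans 582 to 2066, whereas Hmox2 (184 and 205) and Cpox (3062 and 2819.8) have nearly overlapping points; intensities of different probe sets are not comparable as levels.

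In the breakdown arm, Hmox1 had an intensity of 943 after OSU-HDAC42 and 1394 after vehicle, a log2 difference of -0.56 (all differences are OSU-HDAC42 minus vehicle). Hmox2 had 205 and 184, a log2 difference of 0.15. The inducible oxygenase was thus the lower one and the constitutive oxygenase was nearly level. An Hmox2 pseudogene, Hmox2-ps1, has its own probe set, which was far below the floor on both arrays at 5.27 and 8.89.

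The biliverdin reductases had differences of opposite sign, a small one for Blvra and a large one for Blvrb. Blvra had an intensity of 227 after OSU-HDAC42 and 277 after vehicle, a log2 difference of -0.29. Blvrb had 2066 and 582, a log2 difference of 1.83, which ranked 15 from the top among the 9560 genes above the floor. Of 1284 other genes with a mean log2 intensity within 0.5 of that of Blvrb, 10 were at least 2-fold higher. In that same range, 1 gene differed from 0 by as much as Blvrb in either direction. The Blvrb probe set targets a GenBank sequence that is not a RefSeq transcript, as do those of Hmox2, Urod, Cpox and Fech, so the assignment of 5 members rests on the platform annotation. No second probe set was there to check the Blvrb value.

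**Figure D2:**
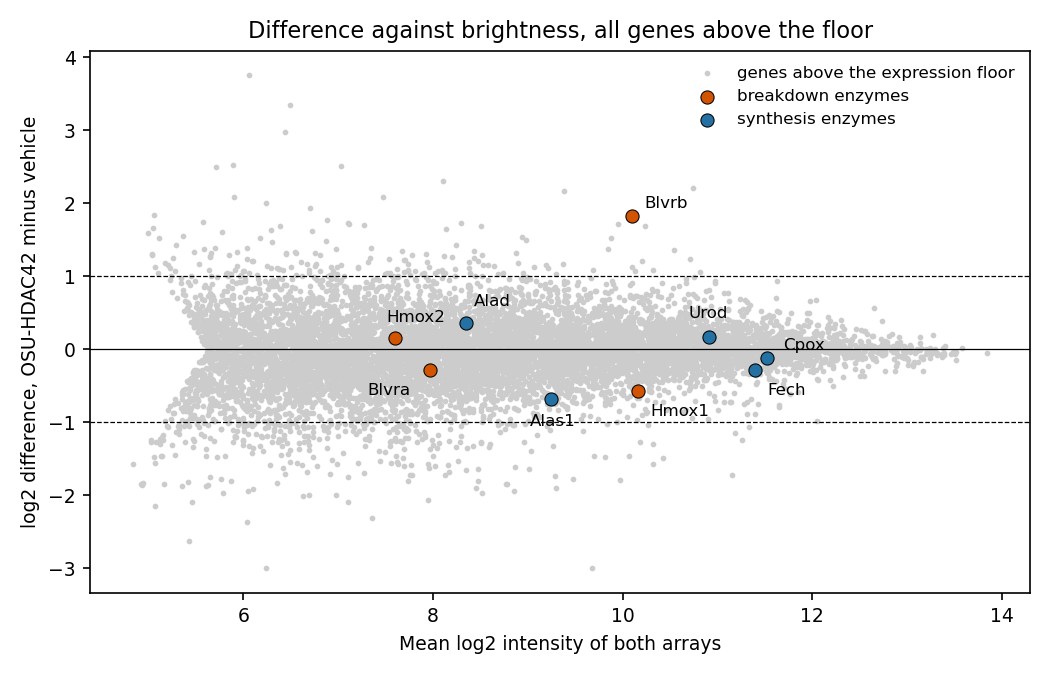
Log2 difference (OSU-HDAC42 minus vehicle) against the mean log2 intensity of both arrays for genes above the floor (grey), with the breakdown enzymes in orange and the synthesis enzymes in blue. Dashed lines mark 2-fold; Blvrb at 1.83 lies above the upper line and the other 8 enzymes lie between the lines.

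The promoters of the reductases are shown because these enzymes share a substrate class and only Blvrb had a large difference. That of Blvra was small (-0.29), and 53.3% of genes of like brightness differed by at least as much in either direction. Both windows hold the 250 bases before the RefSeq gene start in the GRCr8 assembly, read 5′ to 3′ on the plus strand, at chr1:91866008-91866257 for Blvrb and chr3:134802660-134802909 for Blvra. Capitals mark every match to the GC box GGGCGG on either strand, and where 2 matches share a base they form 1 run.
Blvrb: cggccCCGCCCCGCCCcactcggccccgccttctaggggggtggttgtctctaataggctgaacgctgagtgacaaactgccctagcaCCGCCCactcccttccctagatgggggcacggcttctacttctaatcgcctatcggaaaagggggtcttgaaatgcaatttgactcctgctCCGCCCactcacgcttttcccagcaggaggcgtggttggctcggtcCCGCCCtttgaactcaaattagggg
Blvra: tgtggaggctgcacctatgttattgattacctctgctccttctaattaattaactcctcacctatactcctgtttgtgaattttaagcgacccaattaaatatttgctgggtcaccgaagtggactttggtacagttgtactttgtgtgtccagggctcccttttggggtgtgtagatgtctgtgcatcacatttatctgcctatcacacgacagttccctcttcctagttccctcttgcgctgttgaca
Blvrb had 5 GC box matches and a G+C content of 60.4%, and Blvra had 0 matches and 44.4%. A GC box was present in 30.5% of 33469 rat promoter windows of that length, and 1.72% held at least 5. The median G+C content of all windows was 51.2%, below that of Blvrb, and these shares were not matched for G+C content. Other members were also above that median, with 64% in Alas1, 65.6% in Alad, 65.2% in Fech and 54.4% in Urod. The Hmox2 windows had 45.6% and 60%. Sequences were at hand for 7 of the 9 genes, and Hmox1 and Cpox could not be scanned for any motif. Synthesis enzymes held GC boxes too, 4 in Alad, 3 in Urod and 3 in Fech, with 0 in Alas1. Of the 2 Hmox2 windows, 1 held a GC box. The E-box CACGTG occurred once each in Alad and Urod and in 5.59% of all windows. The antioxidant response element core TGACNNNGC occurred in Blvra and in 1 of 2 Hmox2 windows, and in 10.1% of all windows. The motifs were picked with the sequences in view, and a match is a description of letters, not a bound site.

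In the synthesis arm, Alas1, the rate-limiting first enzyme, had an intensity of 478 after OSU-HDAC42 and 766 after vehicle, a log2 difference of -0.68. It was the member with the largest negative difference. Alad, which joins ALA molecules to porphobilinogen, had 368 and 287 and was the highest of the synthesis genes at a log2 difference of 0.36. Urod, which trims uroporphyrinogen, had 2042 and 1811, a log2 difference of 0.17. Both of these cytosolic enzymes were slightly higher.

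The late mitochondrial steps were slightly lower. Cpox, which acts between the mitochondrial membranes, had an intensity of 2819.8 after OSU-HDAC42 and 3062 after vehicle, a log2 difference of -0.12. Fech, the ferrochelatase that inserts iron, had 2453 and 2972, a log2 difference of -0.28. Ppox, the step between them and not one of the 9, had 82.1 and 95.3, a log2 difference of -0.22. Sorted by compartment after the values were seen, 4 of 4 mitochondrial steps above the floor were lower (-0.68 to -0.12) and 2 of 2 cytosolic steps were higher. Uros, another cytosolic step, was below the floor and held the same deposited value of 46.6 on both arrays. Alas2, the ALA synthase of red cells, was below the floor at 13.8 and 16.5.

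Most of these differences are within what probes of 1 gene can disagree by. Over 3643 pairs of probe sets that measured the same gene above the floor, the difference between their log2 differences had an SD of 0.41, and of 0.32 over 1127 pairs above the 75th percentile of intensities. This covers probe noise alone. Hmox2, Blvra, Alad, Urod, Cpox and Fech differed from 0 by less than 0.41, and only Blvrb, Alas1 and Hmox1 by more. Alad, at 0.36, was over the 0.32 of the brighter probe sets. Both SDs carry the noise of 2 probe sets, so they are wider than the noise of 1 probe set set against 0. They are a rough guide and not a limit for a single member. Among genes of like brightness, 9.38% differed by at least as much as Alas1 and 9.70% by at least as much as Hmox1, in either direction. All genes above the floor together had a median log2 difference of -0.027 and an SD of 0.48.

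Set against each other, the medians of both arms were close. The breakdown genes had a median log2 difference of -0.069 (2 higher, 2 lower) and the synthesis genes of -0.12 (2 higher, 3 lower), so breakdown minus synthesis was 0.050. By means the same contrast was 0.39, because Blvrb enters the mean of the breakdown arm at its full size (0.28 against -0.11). Without Blvrb the contrast of medians was -0.17. Leaving out each of the other 8 genes in turn gave -0.17 to 0.27, with a negative value also without Hmox2 (-0.17), Alas1 (-0.096), Fech (-0.096) or Cpox (-0.017). The sign of the contrast thus depends on single genes, and no error of the contrast can be given from 1 array a group.

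**Figure D3:**
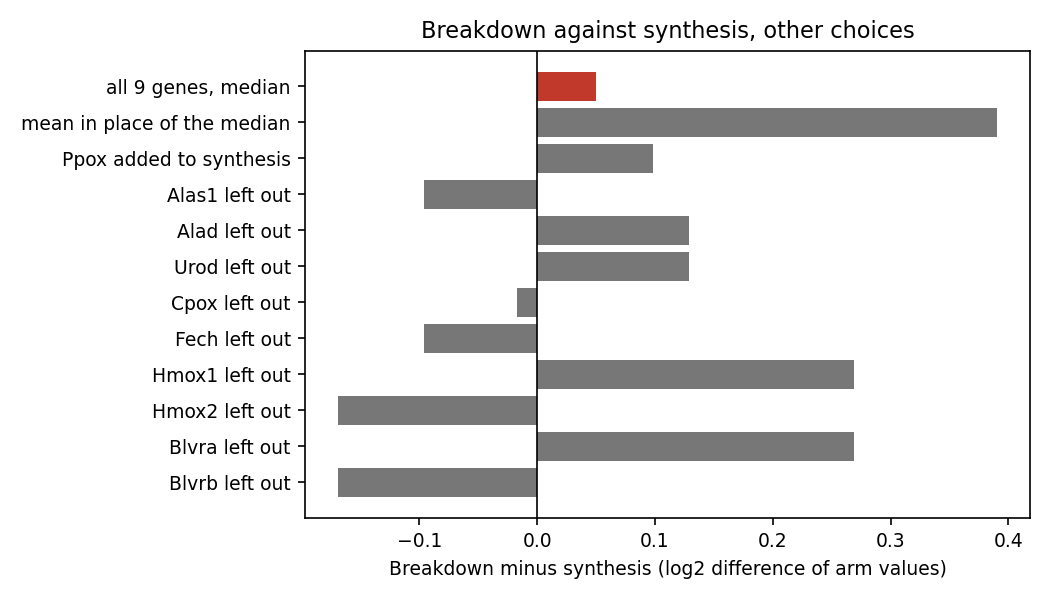
Log2 difference of the breakdown arm minus that of the synthesis arm (horizontal axis) for all 9 genes by medians (red), by means, with Ppox added, and with each gene left out (grey). Bars lie on both sides of 0, from -0.17 to 0.39.

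A list of mitochondrial carriers, cofactor enzymes and heme-modifying enzymes held 12 measured genes, all above the floor, of which 9 were lower and 3 higher (median -0.16). Of all genes above the floor, 52.8% were lower, with a median of -0.027. Without Cox10 and Cox15, which convert heme rather than supply its synthesis, 7 of 10 were lower (median -0.11), none of them 2-fold. Cox10 was the 1 gene on the list past 2-fold, at 41.3 after OSU-HDAC42 and 98.3 after vehicle (-1.25), and it passed the floor only through the vehicle array. The glycine carrier Slc25a38, which supplies Alas1, differed by -0.41, the cysteine desulfurase Nfs1 by -0.34 and the iron importer Slc25a37, mitoferrin, by 0.33.

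Genes that move or bind heme were split, 5 higher and 5 lower among 10 above the floor (median 0.065), none of them 2-fold. Slc48a1, which carries heme out of lysosomes, had an intensity of 777 after OSU-HDAC42 and 464 after vehicle (0.75). Cd163, the macrophage receptor for hemoglobin bound to haptoglobin, had 207 and 123 (0.76), and Lrp1, the receptor for hemopexin with heme, had 970 and 689 (0.49). The heme-binding protein Hebp2 differed by -0.56. Iron handling was also split, 5 higher and 7 lower of 12 (median -0.14), none 2-fold. The iron exporter Slc40a1, ferroportin, differed by 0.55 and the importer Slc39a14 by 0.60. The endosomal ferrireductase Steap3 differed by -0.97, and the importer Slc11a2 by -0.50 on its brightest probe set and 0.25 on its other one.

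Heme-carrying proteins and reductases that serve them had a median of 0.043, with 6 higher and 6 lower of 12 above the floor and none 2-fold. Without the flavoprotein reductases Por and Cyb5r3, 5 of 10 were higher and 5 lower, with the same median of 0.043. Myoglobin, Mb, had an intensity of 1574 after OSU-HDAC42 and 2577 after vehicle (-0.71). Cyclooxygenase 1, Ptgs1, had 1386 and 847 (0.71). The cytochrome subunits Cyba and Cyc1 differed by -0.72 and -0.57.

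Factors that sense heme or act on Hmox1 and Alas1 were measured in 12 cases, 9 above the floor, of which 4 were higher and 5 lower (median -0.28). The largest differences were those of the heme-binding clock repressors, Nr1d2 at 863 and 1615 (-0.90) and Nr1d1 at 411 and 647 (-0.65). Both were lower together with Alas1 (-0.68), and a link was not tested. The small MAF partners of NRF2 and BACH1 differed in both directions, Mafk by 0.49 and Mafg by -0.55. Bach1, the heme-sensing repressor of Hmox1, was under 16 on both arrays at 15.4 and 15.9. Nfe2l2, which encodes NRF2, was level at 1280.4 and 1255 (0.028).

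Of 9 NRF2 targets other than Hmox1 above the floor, 7 were lower and 2 higher, with a median of -0.29 and none 2-fold, where 52.8% of all genes above the floor were lower. Ephx1, an epoxide hydrolase, differed by -0.62, the cystine carrier Slc7a11 by -0.38 and the pentose phosphate enzyme Taldo1 by -0.30, while the thioredoxin reductase Txnrd1 differed by 0.31. Hmox1 at -0.56 lay near the lower end of that range, and Blvrb at 1.83 lay outside it.

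Red cells hold hemoglobin and much Blvrb protein, so erythroid markers were read beside the heme genes. Of 8 measured erythroid genes, 6 were below the floor, and none was higher once values under 16 were raised to 16. Hbb, the hemoglobin beta chain, had an intensity of 324 after OSU-HDAC42 and 848 after vehicle, a log2 difference of -1.39. Klf1, the erythroid transcription factor, had 32.3 and 51.6 (-0.68) and passed the floor only through the vehicle array. Hba-a3 differed by -0.49 and Ahsp by -0.46, both below the floor. Slc4a1, Epb42 and Rhag were under 16 on both arrays. The summed intensity of the list was 458 after OSU-HDAC42 and 1025 after vehicle, most of it from Hbb. The part of red cells in the Blvrb value was not tested.

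Macrophages degrade heme from old red cells and express Hmox1. Of 8 macrophage markers above the floor 7 were higher and Cd68 was equal, with a median of 0.36 and a summed intensity over the 10 measured of 1575 after OSU-HDAC42 against 1116 after vehicle. Mrc1 had 519 and 259 (1.00) and C1qa 168 and 121 (0.48). The 7 higher markers ran from 0.099 (Csf1r) to 1.00 (Mrc1), opposite in sign to Hmox1 (-0.56) and the same in sign as Blvrb. Below the floor, Aif1 differed by -0.22 on its brightest probe set and Spic by 0.17. The part of macrophages in the Hmox1 or Blvrb value was not tested.

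Muscle and stroma markers moved more than most heme genes. All 13 skeletal muscle markers were lower (median -1.14), 8 of them at least 2-fold, with a summed intensity of 14789.7 after OSU-HDAC42 against 28466 after vehicle. On their brightest probe sets, all 7 smooth muscle markers were higher (median 0.62), and so were all 7 fibroblast markers (median 0.50). Synpo2, a smooth muscle marker, had 851 and 301 on its brightest probe set but 319 and 434 (-0.44) on another. Its other probe sets differed by 1.45 and 0.070. Fibroblast markers ran from 0.011 (Col3a1) to 1.09 (Thy1), with Lum at 0.056. Their median was the value of Col1a2, which differed by 0.087 on its other probe set. Summed intensities were 10732 and 6623 for smooth muscle and 20660.4 and 16410.4 for fibroblasts. Mb is itself on the skeletal muscle list, so its lower value is already counted there. The part of these shifts in the lower Alas1 and Hmox1 and the higher Blvrb was not tested. Endothelial markers had a median of -0.49, 2 higher and 4 lower of 6, but their summed intensity was 2469.9 after OSU-HDAC42 and 2328 after vehicle. The brightest of them, Pecam1 and Kdr, differed by 0.32 and 0.34. Emcn (241 and 400, -0.73) and Egfl7 (80.5 and 139 on its brightest probe set, -0.79) were lower and above the floor on both arrays. Tie1 differed by -0.25, and Vwf (44.3 and 85.8) passed the floor only through vehicle. Squamous epithelium markers were nearly level as a list, with a median of -0.022 over 9 genes and summed intensities of 68019.7 and 70486. Of these, 3 were higher and 6 lower, with Ivl at 0.60 and Tgm3 at -0.29, and Krt6a and Dsg3 were not measured. Krt6c, a keratin outside the list, had 2167 and 674 (1.68) on its brightest probe set. It was picked as the named gene nearest to Blvrb in intensity on both arrays. Wipi1 (1794 and 546 on its brightest probe set, 1.72) was almost equally near, and Gnb5 (1593 and 551.5, 1.53) came next. Neither Wipi1 nor Gnb5 is on a marker list. All 3 were picked by nearness, so their likeness is by choice. The part of the epithelium in the Blvrb value was not tested.

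**Figure D4:**
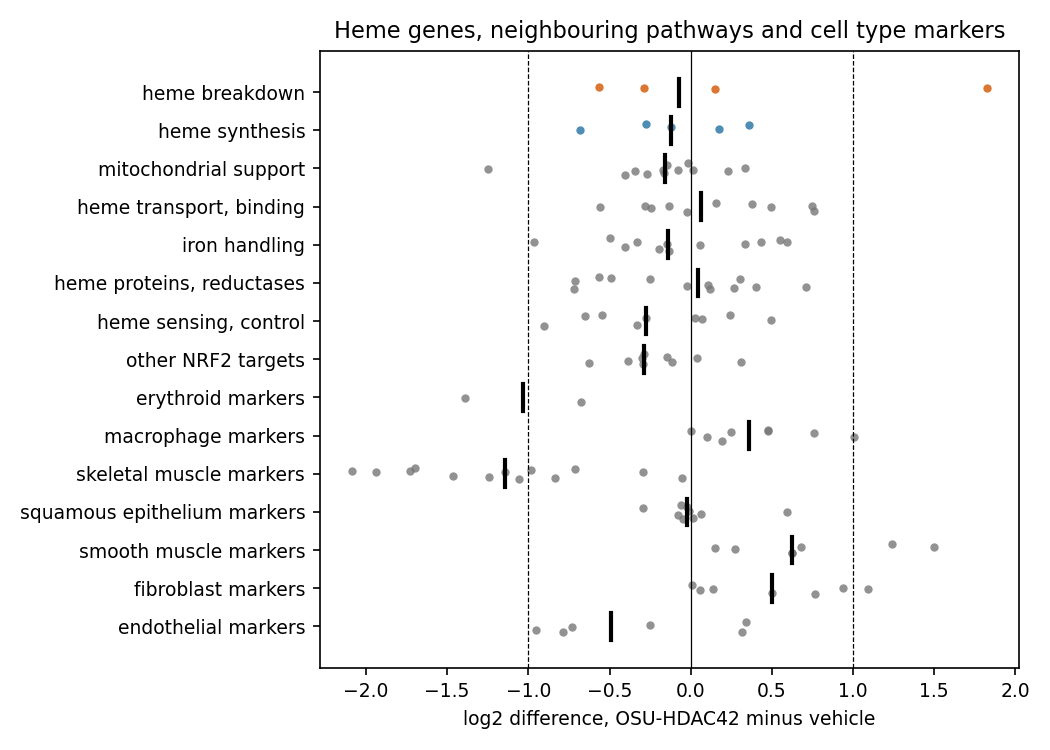
Log2 difference (OSU-HDAC42 minus vehicle, horizontal axis) of each gene above the floor in the breakdown arm (orange), the synthesis arm (blue) and the neighbouring pathway and cell type lists (grey), with the list median as a black bar and 2-fold as dashed lines. The medians of both heme arms lie near 0, and Blvrb at 1.83 is the point farthest to the right.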

How the data were processed

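Esophageal RNA of rats given OSU-HDAC42 or vehicle was measured on 1 array per group. Each deposited value is the linear intensity of 1 probe set, a unit taken from the range of 4.48 to 14947 among non-control probe sets. Per the submitters' processing notes, which give no version or order, the tools were GCOS and RMA. The scaling between arrays is not given in the sources used here, and scaling can remove a shift in total RNA.

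The arrays were used as deposited. Intensities under 16 were raised to 16 (28.4% and 29.2% of probe sets; no member) and log2 was taken. Of 31042 non-control probe sets, 20826 had 1 gene symbol, 436 several and 9780 none; only the first were used. A gene was represented by its brightest probe set (mean log2 over the arrays). With 1 array a group there is no p-value, and the number of arrays limits the precision.

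The members, lists and thresholds were chosen with earlier results of these data known. All 9 members were named. Each neighbouring list gave its 4 genes above the floor with the largest absolute difference, all measured genes for the other synthesis steps and erythroid lists, and otherwise markers by brightness. Bach1, Nfe2l2, Ivl, Synpo2 and the level of Hmox2-ps1 were added after their values were seen. Vwf, Tie1, Thy1, Lum, Csf1r, Aif1 and Spic were also named outside these rules. So were Cox15, Cyb5r3, Por, Pcbp2, Tfrc, Eif2ak1 and Flvcr1. Not every marker that brightness would pick is named. Krt6c, Wipi1 and Gnb5 were named for the nearness of their intensities to those of Blvrb. Promoters are RefSeq sequences of GRCr8. The alternatives covered scaling, probe set choice, low values, floor and threshold. The calculations used Python 3.11.15, pandas 2.3.3 and statsmodels 0.14.6, and were tested on simulated data.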

Additional observations from a re-analysis of the deposited data

How the results depend on the processing

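Each of the 9 members kept the sign of its log2 difference under the 3 alternatives of scaling, with Blvrb from 1.80 to 1.85, Alas1 from -0.70 to -0.66 and Hmox1 from -0.60 to -0.54. Since every member has 1 probe set and no value under 32, the alternatives on probe sets, low values and floor leave their differences as they are by construction. Breakdown minus synthesis stayed positive under scaling (0.050 to 0.078); its sign changed in 5 of 20 alternatives, all of them omissions of 1 gene. At 1.5-fold 2 members were counted, Blvrb and Alas1, among 725 higher and 1042 lower genes (7.58% and 10.9%); at 3-fold there were 31 and 57, and with the floor at the 75th percentile 75 and 119, by construction. Omitting members other than Blvrb, adding Ppox and omitting Cox10, Cox15, Por and Cyb5r3 from their lists were chosen after seeing the data. No paired analysis was possible because there was only 1 array on each side.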

Other observations

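Several neighbours of the heme pathway had probe sets that disagreed. Pcbp2, an iron chaperone, differed by 0.34 and 0.57 on 2 probe sets and by -0.20 on the other. Por, the reductase that feeds electrons to heme oxygenase, differed by -0.49 on its brightest probe set and 0.32 on the other. The transferrin receptor Tfrc differed by 0.056 on a probe set at 4774 and 4591 and by 0.40 on one at 1392 and 1052. The kinase Eif2ak1, which senses heme in red cell precursors, differed by 0.24 and 0.72. Flvcr1, a heme exporter, had an intensity of 1341 after OSU-HDAC42 and 1033.5 after vehicle (0.38).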
